A study of Mus musculus with 6 samples.

Results

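The genes described here are the interleukin 1 and interleukin 18 system: 10 genes that encode ligands, receptors, a decoy receptor and natural antagonists. They were listed by gene symbol, out of 21955 genes counted in each library, with earlier results of these data known. All 10 had a row in the count files, and all 10 passed the filter on low counts. The RNA came from neutrophils taken from the dura, the tough outer membrane of the brain, of mice with a WT genotype that had met a social threat. There were 3 libraries labelled male and 3 labelled female, and every library came from exposed mice, so exposure itself cannot be read from these data. The labels give no strain, age or purification method and do not say whether a library is 1 animal or a pool. The comparison is between the libraries labelled male and those labelled female, all after the threat.

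Interleukin 1 beta is an alarm cytokine that myeloid cells make as an inactive precursor, which inflammasome caspases or neutrophil serine proteases cut. It binds the receptor IL-1R1, which signals only with the accessory chain IL-1RAP. Several brakes act on it: the antagonist IL-1RA occupies IL-1R1 without signalling, the decoy IL-1R2 binds the cytokine but lacks a signalling domain, and soluble receptor chains trap it. Interleukin 18 is cut by the same caspase, signals through IL-18R1 with IL-18RAP, and is held in check by the secreted IL-18 binding protein. Neutrophils are known as a source of interleukin 1 beta and as cells rich in the decoy receptor.

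Library totals ranged from 17098026 to 20778410 counts. The 4 Y-linked genes Ddx3y, Eif2s3y, Kdm5d and Uty summed to between 306.6 and 317.9 CPM (counts scaled by library size) in the libraries labelled male and to between 312.1 and 327.9 CPM in those labelled female, which goes against the label female. Groups are therefore named by their labels, and every direction below is between libraries so labelled, not between measured sexes. The 9 neutrophil markers counted, S100a8, S100a9 and Ly6g among them, were present in all libraries. They summed to 53130 to 58640 CPM in the libraries labelled male and to 59110 to 76260 CPM in those labelled female. By edgeR at an adjusted p under 0.05, 6 (66.7%) were higher in the libraries labelled female, from S100a8 (1.19-fold) to Retnlg (2.38-fold). Of all genes tested, 7.29% were higher by the same test. Ngp, Camp and Ltf did not pass the test. Summed monocyte markers were at 4275 to 4447 CPM against 4535 to 5031 CPM, macrophage markers at 369.3 to 391.1 against 370.9 to 403.6 CPM, B cell markers at 244.1 to 303.3 against 147.1 to 206.5 CPM, and dendritic cell markers at 243.7 to 254.8 against 165.8 to 171.9 CPM (male against female labels). Erythroid markers summed to 16.44 to 21.18 against 29.26 to 55.44 CPM, with Hbb-bs 2.90-fold and Hba-a1 1.95-fold higher in the libraries labelled female. Mitochondrially encoded genes took 10.7% to 13.1% of counts in the libraries labelled male and 6.42% to 8.49% in those labelled female. In bulk RNA, fewer cells of a type and less RNA per cell cannot be told apart. The part that these shifts have in the results below was not tested.

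Of the 10 genes, 4 were higher in the libraries labelled female and none was lower by edgeR at an adjusted p under 0.05, called below. Over all 11903 genes tested, 7.29% were called higher and 6.62% lower. The 4 were Il1b, its antagonist gene Il1rn, the decoy receptor gene Il1r2 and the interleukin 18 accessory chain gene Il18rap. An unadjusted p under 0.05, which every called gene also meets, gave 4 higher and 0 lower, so it added no gene. The share of all genes at that unadjusted threshold was not computed, so these counts cannot be set against it. DESeq2 and limma-voom also called 0 lower. For 5 of the 10, these 4 and Il18bp, no library of either label fell in the range of the other, where 30.9% of all tested genes had groups that did not overlap. The median log2 fold change of the 10 was 0.14, beside 0.0016 for all tested genes.

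To show what lies at the starts of the 4 called genes, the 250 bases before a RefSeq transcription start (build GRCm38.p6) are given on the coding strand, each ending just before the first transcribed base. Capitals mark matches on either strand to 5 motifs: GGGNNNNNCC (kappa B, bound by NF-kB), TTGCNNAA (C/EBP), GAGGAA (the core bound by PU.1), TATAAA (the TATA box) and CACGTG (E-box). The windows lie at chr2:129371140-129371389 on the minus strand for Il1b and, on the plus strand, at chr1:40085843-40086092 for Il1r2, chr2:24336610-24336859 for Il1rn and chr1:40515112-40515361 for Il18rap. RefSeq lists 3 starts for Il1rn, of which the first is shown, and the counts per gene do not tell which was used.
Il1b: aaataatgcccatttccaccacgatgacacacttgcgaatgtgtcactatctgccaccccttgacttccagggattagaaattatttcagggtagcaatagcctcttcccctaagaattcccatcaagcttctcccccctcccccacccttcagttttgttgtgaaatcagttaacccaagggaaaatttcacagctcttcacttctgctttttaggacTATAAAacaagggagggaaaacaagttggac
Il1r2: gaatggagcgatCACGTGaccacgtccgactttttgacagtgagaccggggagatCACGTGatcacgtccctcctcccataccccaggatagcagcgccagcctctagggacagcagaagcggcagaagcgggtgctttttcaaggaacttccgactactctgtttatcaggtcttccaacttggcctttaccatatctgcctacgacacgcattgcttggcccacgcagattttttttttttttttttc
Il1rn: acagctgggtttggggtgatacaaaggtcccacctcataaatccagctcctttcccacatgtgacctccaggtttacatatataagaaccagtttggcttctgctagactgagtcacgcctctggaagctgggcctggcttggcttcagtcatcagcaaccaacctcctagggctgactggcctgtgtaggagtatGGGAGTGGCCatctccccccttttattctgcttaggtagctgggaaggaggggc
Il18rap: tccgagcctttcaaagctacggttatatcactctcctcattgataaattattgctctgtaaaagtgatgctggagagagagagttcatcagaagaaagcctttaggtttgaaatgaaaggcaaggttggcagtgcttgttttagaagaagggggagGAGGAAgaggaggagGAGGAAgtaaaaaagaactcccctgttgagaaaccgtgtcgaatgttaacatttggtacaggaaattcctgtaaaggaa

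The marked letters differed between the 4 windows, and no motif was shared by 2 of them. In Il1b the TATA box began 31 bases before the start, and 12.4% of all 32851 RefSeq windows of this length held those letters. In Il1r2 the E-box occurred at 238 and 195 bases before the start, a motif held by 6.02% of all windows. Il18rap had 2 GAGGAA matches (23.25% of all windows) and Il1rn 1 kappa B match (45.8% of all windows). Over all 16 windows of the 10 genes, the kappa B letters were in 5, the C/EBP letters in 3 (9.56% of all windows), GAGGAA in 2, TATAAA in 2 and CACGTG in 1. None of the marked matches in the 4 windows shown overlapped another. A match describes the letters and is not evidence of binding.

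Il1b (ENSMUSG00000027398, chromosome 2), the ligand, was at 67.2, 71.5 and 73.6 CPM in the libraries labelled male and at 138, 130.1 and 153.5 CPM in those labelled female. Every library labelled female lay above every library labelled male, by a margin wider than the spread within either group. The change was 1.99-fold (log2 0.99, SE 0.069, 95% interval 0.85 to 1.14, adjusted p = 4.31e-09 by edgeR's quasi-likelihood test). Il1b shares 25 exon bases with the antisense RNA Il1bos, and no source used here states how strand was counted, so reads over those bases cannot be assigned to either.

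Il1rn (ENSMUSG00000026981, chromosome 2), the gene of the receptor antagonist, rose with its opponent. It was at 26.49, 26.01 and 29.9 CPM in the libraries labelled male and at 43.0, 40.8 and 47.6 CPM in those labelled female, with no overlap. Its increase was 1.59-fold (log2 0.67, SE 0.086, 95% interval 0.494 to 0.854, adjusted p = 1.37e-05 by edgeR). The point estimate was smaller than that of Il1b, and the intervals overlap narrowly (0.846 to 1.135 for Il1b). The ratio of Il1rn to Il1b, in reads per kilobase, compares the 2 genes within a library. It was 0.136, 0.125 and 0.140 in the libraries labelled male and 0.107, 0.108 and 0.107 in those labelled female, a log2 difference of -0.32 with groups that did not overlap (p = 0.1 in an exact permutation test, two-sided; 0.15 after Benjamini-Hochberg adjustment over 3 ratios). With 3 libraries against 3, a p of 0.1 is the lowest value this test can reach.

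Among the receptors of interleukin 1, the decoy and the signalling chain differed in level. Il1r2 (ENSMUSG00000026073, chromosome 1), which encodes the decoy, was at 60.8, 60.2 and 74.8 CPM in the libraries labelled male and at 136.2, 119.4 and 157.1 CPM in those labelled female. The groups did not overlap, and replicate 3 was the highest library of each label. The rise was 2.11-fold (log2 1.08, SE 0.091, 95% interval 0.89 to 1.27, adjusted p = 6.37e-08 by edgeR), the largest point estimate among the 10 genes, with an interval that overlaps that of Il1b.

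Il1r1 (ENSMUSG00000026072, chromosome 1), the signalling receptor, was the scarcest of the 10 per kilobase of exon. It had 47, 91 and 52 raw counts in the libraries labelled male and 66, 94 and 72 in those labelled female, or 2.65 to 5.19 and 3.49 to 4.74 CPM. The groups overlapped throughout, and replicate 2 was the highest library in both. The log2 change was 0.11 (SE 0.25, 95% interval -0.42 to 0.63, adjusted p = 0.822), so at this depth neither a fall nor a rise within that interval could be detected.

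The ratio of decoy to signalling receptor, Il1r2 to Il1r1 in reads per kilobase, was 76.4, 38.7 and 80.5 in the libraries labelled male and 130.1, 84.0 and 146.7 in those labelled female. The lowest library labelled female lay just above the highest labelled male. The log2 difference was 0.92 (p = 0.1 in the exact two-sided permutation test, again its lowest value; 0.15 adjusted over 3 ratios), and it was 0.58 without male replicate 2 and 1.16 without female replicate 2. Il1r1, its denominator, had only 47 to 94 counts per library.

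**Figure D1:**
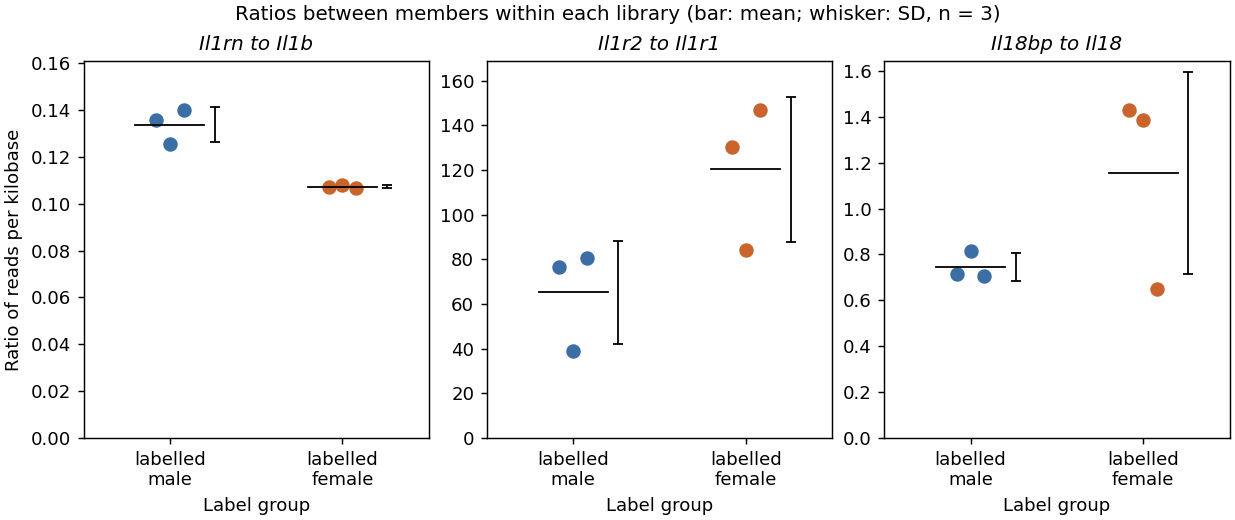
Ratios of reads per kilobase of exon within each library, from 0 on each vertical axis, for the libraries labelled male (blue) and female (orange); points are libraries, bars the mean and whiskers the SD of 3. The Il1rn to Il1b ratio is lower in the libraries labelled female (0.107 ± 0.000635 against 0.134 ± 0.00754). The Il1r2 to Il1r1 ratio is higher there (120.3 ± 32.5 against 65.2 ± 23.1). For Il18bp to Il18, female replicate 3 (0.648) lies below every library labelled male, and female replicates 1 and 2 lie above them.

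Il1rap (ENSMUSG00000022514, chromosome 16), the accessory chain that IL-1R1 and the interleukin 33 receptor both need, was at 24.8, 20.3 and 26.6 CPM in the libraries labelled male and at 29.3, 24.0 and 24.2 CPM in those labelled female. The values interleaved (log2 0.11, SE 0.11, 95% interval -0.12 to 0.34, adjusted p = 0.553 by edgeR). It shares 552 exon bases with an antisense RNA, Gm20319, and its membrane and soluble forms come from 1 gene and cannot be separated here.

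Il1rl1 (ENSMUSG00000026069, chromosome 1), which encodes the interleukin 33 receptor ST2, was at 7.34, 5.87 and 4.17 CPM in the libraries labelled male and at 5.45, 4.94 and 5.65 CPM in those labelled female. The libraries labelled male enclosed the others (log2 -0.12, SE 0.20, 95% interval -0.53 to 0.29, adjusted p = 0.747 by edgeR). Basophils and mast cells are known for this receptor, and the basophil protease genes Prss34 (258.1 ± 13.9 against 223.1 ± 6.33 CPM, SD, n = 3, male against female labels) and Mcpt8 (181.1 ± 10.1 against 159.5 ± 7.84 CPM) were expressed in these libraries. Of the mast cell protease genes listed, Mcpt4 and Tpsb2 were at 0 counts in all 6 and Cma1 had 1 to 6 counts. Cpa3, a carboxypeptidase of mast cells and basophils, was at 35.8 ± 4.36 against 36.1 ± 5.28 CPM, and Kit, the stem cell factor receptor of mast cells and progenitor cells, at 69.7 ± 2.90 against 66.6 ± 0.411 CPM. Of the 9 genes in that marker list, 6 were tested and 1, Prss34, fell (16.7%, beside 6.62% of all genes tested). The summed level of the list was 540 to 603 CPM against 506.7 to 542.5 CPM. The part of basophils in the Il1rl1 level was not tested.

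**Figure D2:**
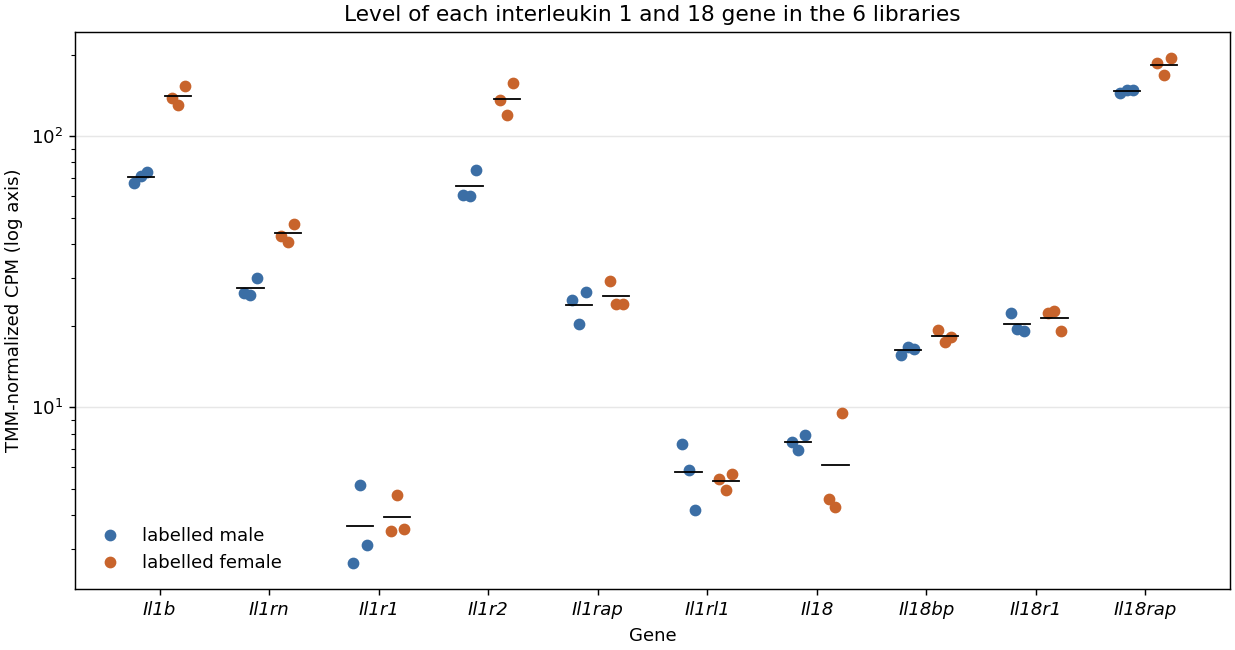
Level of each of the 10 genes in TMM-normalized CPM on a log axis, by library, for the libraries labelled male (blue) and female (orange), with the mean of each group as a bar. Il1b, Il1rn, Il1r2, Il18rap and Il18bp separate the groups without overlap, and of these Il18bp did not pass the test. For Il18, female replicate 3 (9.52 CPM) lies above, and replicates 1 and 2 of that label (4.603 and 4.284 CPM) below, all 3 libraries labelled male.

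In the interleukin 18 arm the ligand gene split the libraries labelled female. Il18 (ENSMUSG00000039217, chromosome 9) had 132, 122 and 133 counts in the libraries labelled male, or 7.46, 6.96 and 7.92 CPM. In those labelled female it had 87, 85 and 192 counts, or 4.603, 4.284 and 9.52 CPM. Female replicates 1 and 2 lay below all libraries labelled male, and female replicate 3 above all of them. The log2 change was -0.27 (SE 0.23, 95% interval -0.75 to 0.20, adjusted p = 0.473 by edgeR). Without female replicate 3 it was -0.74 with adjusted p = 0.00487, so 1 library decides whether Il18 is called lower. In that library the summed dendritic cell markers, at 171.9 CPM, were close to the 169.6 and 165.8 CPM of the other libraries of its label, and the macrophage markers were at 370.9 against 391.8 and 403.6 CPM. Other lists did set that library apart, with neutrophil markers at 76260 against 62890 and 59110 CPM and erythroid markers at 29.26 against 55.44 and 49.19 CPM. The part of these in the Il18 value was not tested. Its counts over all genes differed from those of female replicates 1 and 2 with a chi-square per degree of freedom of 13.4 and 16.5, while female replicates 1 and 2 differed by 5.14.

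Il18bp (ENSMUSG00000070427, chromosome 7), the gene of the secreted binding protein, was at 15.6, 16.6 and 16.4 CPM in the libraries labelled male and at 19.3, 17.4 and 18.1 CPM in those labelled female. The groups did not overlap, but the difference did not pass the test (log2 0.17, SE 0.10, 95% interval -0.046 to 0.39, adjusted p = 0.302 by edgeR). It shares 80 exon bases with Numa1, a gene on the opposite strand. The ratio of Il18bp to Il18 was 0.715, 0.816 and 0.704 in the libraries labelled male and 1.43, 1.39 and 0.648 in those labelled female (log2 difference 0.55, exact two-sided permutation p = 0.4, also 0.4 adjusted over 3 ratios). Leaving out female replicate 3 gave a log2 difference of 0.92, leaving out female replicate 1 gave 0.35, and leaving out female replicate 2 gave 0.37.

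Of the receptor chains of interleukin 18, one passed the test and the other did not. Il18rap (ENSMUSG00000026068, chromosome 1), the accessory chain, was at 144.2, 148 and 148.7 CPM in the libraries labelled male and at 186.2, 167.7 and 195.1 CPM in those labelled female, with no overlap. It rose 1.24-fold (log2 0.32, SE 0.063, 95% interval 0.18 to 0.45, adjusted p = 0.00173 by edgeR). Il18r1 (ENSMUSG00000026070, chromosome 1), the ligand-binding chain, was at 22.2, 19.4 and 19.1 CPM and at 22.3, 22.7 and 19.1 CPM, with overlapping groups (log2 0.08, SE 0.10, 95% interval -0.14 to 0.29, adjusted p = 0.691). The intervals of the 2 chains overlap, and the difference between their changes was not tested. T and NK cells are known to carry both chains. Of 10 markers of T, NK and innate lymphoid cells, 2 (Cd4 and Gata3) fell towards the libraries labelled female by edgeR. That is 20%, beside 6.62% of all genes tested, and none of these markers rose. Their summed level was 163.8 to 190.6 CPM against 153.7 to 179.2 CPM, most of it Nkg7 (100.9 ± 6.43 against 100.5 ± 6.61 CPM), with Cd3e at 2.98 ± 0.0519 against 2.67 ± 0.526 CPM. The part of these cells in the Il18rap level was not tested.

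**Figure D3:**
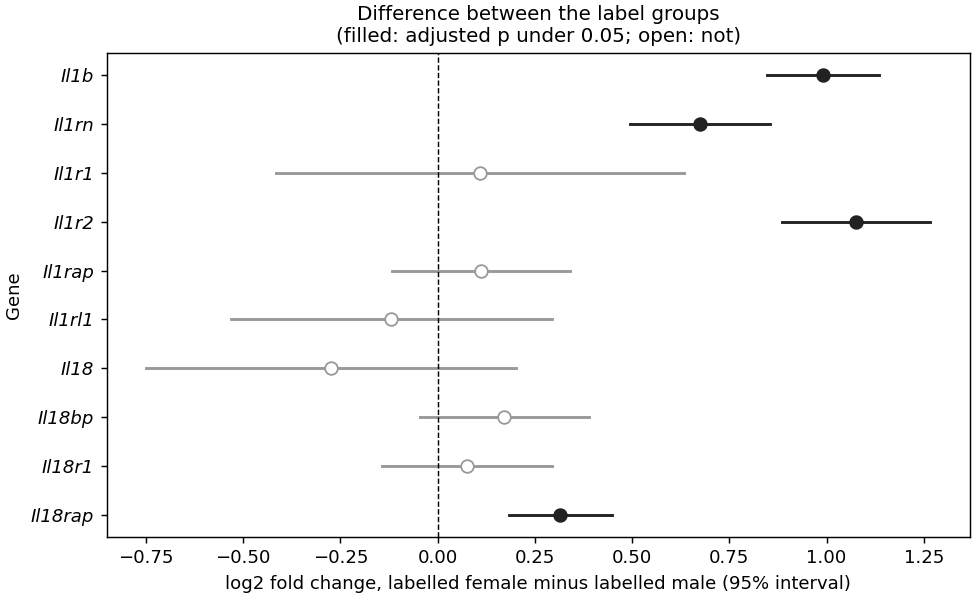
Log2 fold change of each of the 10 genes, libraries labelled female minus those labelled male, with its 95% interval; filled points passed an adjusted p of 0.05 by edgeR and open points did not. Il1b (0.99) and Il1r2 (1.08) lie farthest to the right, Il1rn (0.67) and Il18rap (0.32) follow, and the intervals of the other 6 genes include 0.

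Levels between genes are compared only per kilobase of exon (the union of all annotated exons, which lowers the value of a gene with many alternative exons). In the libraries labelled male, Il1b (37.1 ± 1.70 CPM per kilobase) and Il1r2 (34.2 ± 4.33) led and lay within their spread of each other, and Il18rap (21.8 ± 0.361) came next. Il18 (7.22 ± 0.468), Il18bp (5.36 ± 0.172), Il1rn (4.96 ± 0.384), Il18r1 (4.21 ± 0.351) and Il1rap (2.10 ± 0.284) formed a middle range, in which Il18bp and Il1rn were within their spread. Il1rl1 (0.841 ± 0.230) and Il1r1 (0.573 ± 0.213) were the lowest and did not differ beyond their spread. In the libraries labelled female, Il1b (73.7 ± 6.25 CPM per kilobase) and Il1r2 (72.1 ± 9.90) again led side by side, above Il18rap (27.1 ± 2.07). Il1rn, at 7.91 ± 0.627, came next there, above Il18bp (6.04 ± 0.313). Il18 (5.95 ± 2.85) had no clear place. It ran from 4.155 in female replicate 2, below the mean of Il18r1, to 9.236 in female replicate 3, above that of Il1rn. The remaining genes kept their order, Il18r1 (4.43 ± 0.402), Il1rap (2.27 ± 0.266), Il1rl1 (0.776 ± 0.0534) and Il1r1 (0.618 ± 0.110).

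Of the 10 genes, 5 receptor genes sit side by side on chromosome 1 with Il1rl2, the interleukin 36 receptor gene, in the order Il1r2, Il1r1, Il1rl2, Il1rl1, Il18r1 and Il18rap (GENCODE M21). The 2 genes at the ends of the row, Il1r2 and Il18rap, were the called ones. The 4 between had log2 changes of 0.11, -0.22, -0.12 and 0.08, with adjusted p from 0.314 to 0.822 by edgeR. This arrangement was singled out after the values were seen.

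By Pearson's correlation of log2 CPM over the 6 libraries, which includes the difference between the groups, the genes most like Il1b among 10559 with a mean of at least 1 log2 CPM were Yipf4 (r = 0.998), Prok2 (0.996), Retnlg (0.995), Ankrd33b (0.995) and Cap1 (0.994). They differ in how far they moved: Prok2, a secreted chemoattractant peptide, was 3.87-fold higher and Retnlg, a resistin-like protein of neutrophils, 2.38-fold higher in the libraries labelled female, while Yipf4 was 1.14-fold higher and did not pass the test (adjusted p = 0.0680 by edgeR). In all, 674 genes had r over 0.9. Among the other 9 genes of the system, r with Il1b was 0.988 for both Il1rn and Il1r2, 0.965 for Il18rap and 0.879 for Il18bp, and it lay between -0.32 and 0.34 for the other 5. All points share libraries and depth, and no test is given.

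Beyond the 10, 59 other genes of the pathway were listed in 4 groups. Of these, 58 had a row (Il36g is not analysed here) and 47 passed the filter on low counts. Of the 47, 5 were called higher (10.6%, beside 7.29% of all genes tested) and 12 lower (25.5%, beside 6.62%), and their median log2 change was -0.03. At an unadjusted p under 0.05, 10 were higher and 17 lower, again with no share of all genes to set beside them. The number called higher was 3 without male replicate 2 and 7 without female replicate 3, and the number called lower was 7 without male replicate 3. Of the other ligands and antagonists of the family, Il1a had 2 to 11 counts per library, Il33, Il36a (Il1f6) and Il36b (Il1f8) at most 1, and Il36rn (Il1f5) and Il1f10 none. The receptor genes Il1rapl1 and Il1rapl2 also had none. Sigirr, a receptor-like brake on interleukin 1 signalling, fell from 16.6 ± 1.85 to 12.4 ± 1.77 CPM (1.34-fold, adjusted p = 0.0316 by edgeR). Sigirr missed the threshold when any library labelled male (adjusted p = 0.0540, 0.172 and 0.0567) or female replicate 1 (0.126) was left out.

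Among adaptors and kinases that carry the signal from the receptor, 1 of 17 tested (18 listed) was lower and none higher by edgeR. The share lower, 5.88%, was near the 6.62% of all genes tested. The lower gene was Ikbkb, the kinase that marks the NF-kB inhibitor for destruction. It fell 1.25-fold from 198.6 ± 1.04 to 159.5 ± 3.56 CPM (adjusted p = 0.000559 by edgeR). Tab2, a scaffold of the TAK1 kinase and the gene with the highest CPM of this group before length correction, was at 189.6 ± 5.16 and 211.3 ± 9.88 CPM (adjusted p = 0.0824). Without female replicate 3, 2 of these genes were called higher, Tab2 and Irak4. At an unadjusted p under 0.05, for which no share of all genes was computed, 4 of these genes were higher and 2 lower. The median log2 change was 0.05. Myd88, the adaptor of the signalling receptors of the family, led the group per kilobase of exon (33.2 ± 0.761 against 35.7 ± 2.82 CPM per kilobase, SD, n = 3) and had a log2 change of 0.10 (adjusted p = 0.327).

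Of the 15 genes tested that mature and release the ligands, 5 (33.3%) were lower and 1 (6.67%) higher in the libraries labelled female. Over all genes tested, 6.62% were called lower and 7.29% higher. The median log2 change of the 15 was -0.07. Nlrp3, the inflammasome sensor best known for cutting of interleukin 1 beta, was at 132.2, 130 and 149.2 CPM in the libraries labelled male and at 101.4, 103.9 and 100.4 CPM in those labelled female. It fell 1.34-fold (log2 -0.43, SE 0.064, adjusted p = 9.94e-05 by edgeR). The inflammasome genes Nlrc4 (1.35-fold, adjusted p = 0.00366) and Aim2 (1.22-fold, adjusted p = 0.00336), a detector of DNA, fell as well, both with groups that did not overlap.

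Casp4, the caspase of the non-canonical inflammasome, fell 1.28-fold to 68.8 ± 10.6 CPM (adjusted p = 0.00894 by edgeR), with female replicate 3 (80.9 CPM) inside the range of the libraries labelled male. The remaining calls of this group, named here after their values were seen, were Mefv (log2 -0.21), the pyrin sensor, and Gsdme (log2 0.28), a pore-forming gasdermin. Casp8, a caspase that can also cut interleukin 1 beta, just missed the threshold (130.3 ± 1.81 against 115.7 ± 3.07 CPM, log2 -0.17, adjusted p = 0.0543) and was called lower in 6 of 14 alternative fits, at an adjusted p of 0.0134 to 0.201 over the 14. Casp1, which cuts both ligands (log2 -0.07, adjusted p = 0.533), the adaptor Pycard (0.02, adjusted p = 0.937) and the pore Gsdmd (-0.03, adjusted p = 0.825) were not called. Elane, the neutrophil elastase gene and the most abundant of the group, was at 928.3 ± 10.1 and 886.3 ± 56.1 CPM (adjusted p = 0.503). The Casp4 call did not hold when male replicate 1 (adjusted p = 0.0553), male replicate 3 (0.0762) or female replicate 2 (0.0505) was left out, nor that of Gsdme when male replicate 2 was (0.0825). Mefv missed the threshold when any library labelled male (0.0685, 0.123 and 0.122) or female replicate 2 (0.113) was left out. Leaving out male replicate 1, male replicate 3 or female replicate 2 thus left 3 lower genes in this group, and the 1 higher gene became 0 without male replicate 2 and 2 without female replicate 3.

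Genes listed here as induced by interleukin 1, Ifng among them, were split. Of 15, 13 were tested, 4 rose (30.8%, beside 7.29% of all genes tested) and 5 fell (38.5%, beside 6.62%). The median log2 change of the 13 was -0.30. Ptgs2, the inducible cyclooxygenase, rose 1.58-fold from 35.9 ± 1.99 to 56.9 ± 2.34 CPM (adjusted p = 2.33e-06 by edgeR), and the neutrophil chemoattractant Cxcl2 rose 1.37-fold from 219.9 ± 11.3 to 300.4 ± 31.8 CPM. Saa3, an acute phase protein, rose 2.09-fold at a low level, from 1.92 ± 0.289 to 4.03 ± 0.807 CPM (adjusted p = 0.00670). Lcn2, an iron-binding granule protein and the most abundant of the group, rose 1.20-fold (adjusted p = 0.0388). The monocyte chemoattractant Ccl2 fell 1.57-fold from 118.2 ± 6.38 to 75.3 ± 6.39 CPM (adjusted p = 1.49e-06).

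The other genes that fell, named after their values were seen, were the feedback inhibitors Tnfaip3 (log2 -0.41), Nfkbia (-0.30) and Zc3h12a (-0.35) and the adhesion ligand Icam1 (-0.35). Il6 (adjusted p = 0.156), Cxcl1 (adjusted p = 0.168, 7 to 27 counts per library) and Ifng (adjusted p = 0.156, 46 to 122 counts) were not called by edgeR. With no filter Ifng was called lower (adjusted p = 0.0447). The Lcn2 call was lost by DESeq2 (adjusted p = 0.199), with a filter of 10 CPM (0.0619), without male replicate 1, 2 or 3 (0.107, 0.188 and 0.0875) and without female replicate 3 (0.0594). Zc3h12a was lost without male replicate 3 (0.0918) or female replicate 1 or 2 (0.0539 and 0.0666), and Icam1 without male replicate 1, 2 or 3 or female replicate 2 (0.0893, 0.0667, 0.0688 and 0.112). With male replicate 3 or female replicate 2 left out, 3 genes of this group were lower, and with the filter of 10 CPM 2 were higher.

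**Figure D4:**
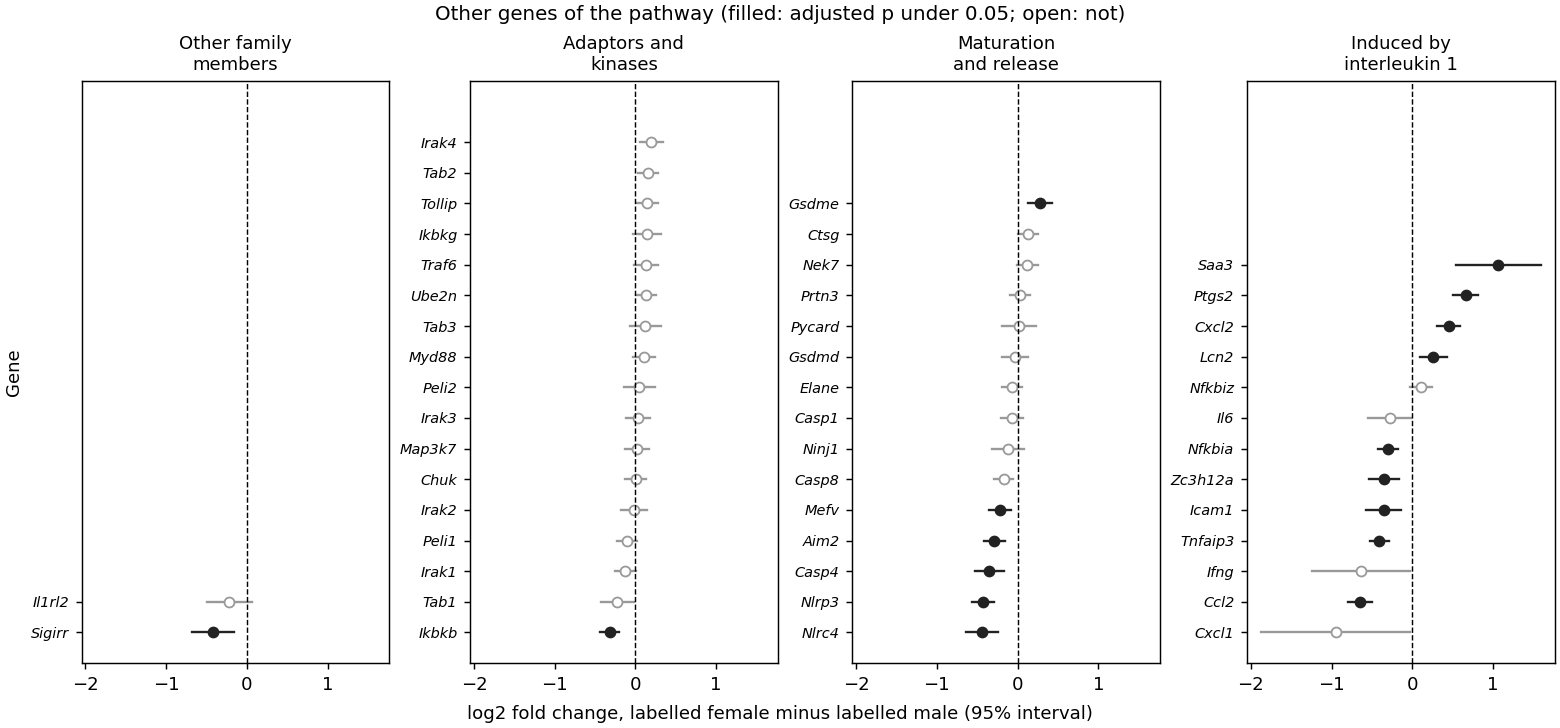
Log2 fold change with 95% interval of the 47 other pathway genes tested, libraries labelled female minus those labelled male, in 4 panels by role; filled points passed an adjusted p of 0.05 by edgeR and open points did not. The inflammasome genes Nlrp3 (-0.43) and Nlrc4 (-0.44) lie left of 0, and the adaptors lie between -0.32 (Ikbkb) and 0.20 (Irak4). The genes listed as induced by interleukin 1 spread from Ccl2 (-0.65) to Saa3 (1.07) among those called.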

How the data were processed

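The authors deposited raw counts per Ensembl gene, whole numbers with no normalization, for 6 libraries of poly-A RNA. Per the submitters' processing notes, the tools were cutadapt 1.15 and HISAT2 2.0.5 and the build was GRCm39; no source used here names the counting program or says how strand or reads shared by genes were handled. Symbols, exon lengths and gene order came from GENCODE M21, of an older build, which named 21847 of 21955 identifiers; 141 of 143 list entries were matched to a row through symbols and older names.

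Counts were fitted with edgeR 4.0.16 in R 4.3.3 over the whole table (TMM, minimum count 10 in filterByExpr, quasi-likelihood test, group as the only term, Benjamini-Hochberg adjustment over 11903 genes, threshold 0.05). SE and 95% intervals were computed from each log2 change and its F value. CPM uses the TMM factors. Whether the libraries are separate animals is not in the labels, and p-values then reflect only the spread among these libraries, which may be technical; libraries of a group were not copies of each other (chi-square per degree of freedom 4.10 to 16.5). Ratios were compared by exact permutation tests. The genes named are the 10, in each pathway list up to 4 of the called genes by size and the most abundant, the most abundant of a marker list, and the 5 most like Il1b; others were named after their values were seen. The 10 genes and all lists were chosen with earlier results of these data known. Cxcr2 and Il36g are not analysed here.

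The alternatives tried in edgeR were upper-quartile factors, DESeq2's size factors, no filter, at least 10 CPM in 3 libraries, and counts without mitochondrially encoded genes. The replicate number as a block and leaving out each library were tried too, as were DESeq2 1.42.0 itself and limma-voom (limma 3.58.1). Ratios were also taken without length correction. That correction is the same factor in every library, so it cannot change a log2 difference or its p.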

Additional observations from a re-analysis of the deposited data

How the results depend on the processing

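The calls of Il1b, Il1rn, Il1r2 and Il18rap held under all 14 alternatives to the fit, with adjusted p of at most 1.40e-06, 0.000462, 1.13e-05 and 0.0212. No other gene of the 10 was called under any alternative that tested it, but for Il18 without female replicate 3. The number called lower thus ranged from 0 to 1 when a library was left out. Il1r1, Il1rl1 and Il18 were below the filter of 10 CPM and so were tested in 13 of the 14. Leaving out a library moved the log2 change of Il1r1 between -0.077 and 0.45 and that of Il1rl1 between -0.30 and 0.089, turning both signs. The other pathway genes called higher numbered 3 with a filter of 10 CPM, which tests 44 of them, and 3 to 7 when a library was left out; those called lower numbered 7 to 13. Over all genes, leaving out a library gave 439 (without male replicate 3) to 1439 (without female replicate 3) higher and 467 to 1269 lower calls, for the same libraries. All 3 ratios kept their direction when any library was left out. The exact two-sided permutation p, unadjusted, was then 0.1 each time for Il1rn to Il1b. It was 0.1 to 0.3 for Il1r2 to Il1r1 and 0.1 to 0.6 for Il18bp to Il18. The deviations of same-numbered libraries from their group means had correlations of -0.039, 0.065 and 0.063, and the labels do not say whether they were paired. With the replicate block 4 of the 10 genes were higher and 0 lower, with 5 higher and 13 lower in the pathway. The block gave 1007 higher and 914 lower calls over all genes, beside 868 and 788 without it. Il1r1 and Il1rl1 had 47 to 130 counts per library, and the wide interval of Il18 goes with the split of the libraries labelled female.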
